A study of Solanum pimpinellifolium with 60 samples.

Results

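The comparison described here set the floral and inflorescence meristems (F&IM) against the sympodial shoot apical meristem (SYM) of Solanum pimpinellifolium LA1589, the wild relative of tomato. It used 24 of the 60 libraries of the series, 12 of F&IM and 12 of SYM. At each stage 3 libraries came from each of 4 genotypes: the lc, fas and lc/fas nearly isogenic lines (NILs) and the wild type (WT). In the NILs, small introgressions bring the cultivated alleles of lc, close to the stem cell gene SlWUS, of fas, an inversion with its ends at SlCLV3 and SlYABBY2b, or of both into LA1589 through repeated backcrosses. The remaining 36 libraries came from floral buds 2, 4 and 6 days after floral initiation (dpi). The F&IM sample holds floral and inflorescence meristems together, because they were dissected as 1 tissue. All tissue was kept in RNAlater and dissected with forceps from the first and second inflorescences of each plant.

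Tomato shoots grow sympodially. The shoot apex ends in an inflorescence, and growth goes on from the SYM in the axil of the uppermost leaf, which forms a few leaves before it ends in an inflorescence in its turn. Within the inflorescence, each meristem matures into a flower while a new inflorescence meristem forms at its side. In flowering plants, the passage from a leaf-forming to a flower-forming meristem is known to depend on MADS-box transcription factors, on the F-box protein UNUSUAL FLORAL ORGANS (UFO), on proteins of the FT/TFL1 family, on AP2-type repressors of flowering and on gibberellin.

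The libraries were made by 3′ Tag RNA-seq, which reads the 3′ end of an mRNA and no more. A level is given as RPM, the counts of a gene per 1000000 counts of its library. In units of 1000000 counts, library totals ran from 2.90 to 7.84, with medians of 4.83 in F&IM and 4.70 in SYM, and 22089 to 24346 genes had a count in a library. The first principal component, 30.5% of the variance, separated the F&IM from the SYM libraries. The second, 21.3% of the variance, set 1 library apart: the WT SYM, replicate 3, at 83.2, whereas the next highest library, the fas F&IM, replicate 3, was at 40.9. Counts and fitted changes for the WT alone are therefore given with and without it, except in the counts and medians that set genotypes side by side. Genes are named by the Arabidopsis homolog with which the study's gene lists pair them, or as the study names them, with the tomato name added where it is well known.

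Of 17726 genes tested with edgeR's quasi-likelihood test, genotype being a covariate, 3134 (17.7%) were higher and 2934 (16.6%) lower in F&IM than in SYM at a Benjamini-Hochberg adjusted p under 0.1. Together these were 6068 genes (34.2%), so small changes passed with 12 libraries per stage. A change of at least 2-fold was found for 463 genes higher (2.61%) and 421 genes lower (2.38%) in F&IM, or 701 and 712 without the filter on low counts. For 368 genes (2.08%) every F&IM library lay above every SYM library, and for 357 genes (2.01%) every F&IM library lay below. The median log2 fold change over all genes tested was 0.01. Of the 3698 genes tested that have an Arabidopsis pair, 770 (20.8%) were higher and 790 (21.4%) lower, the shares beside which the family counts are set.

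**Figure D1:**
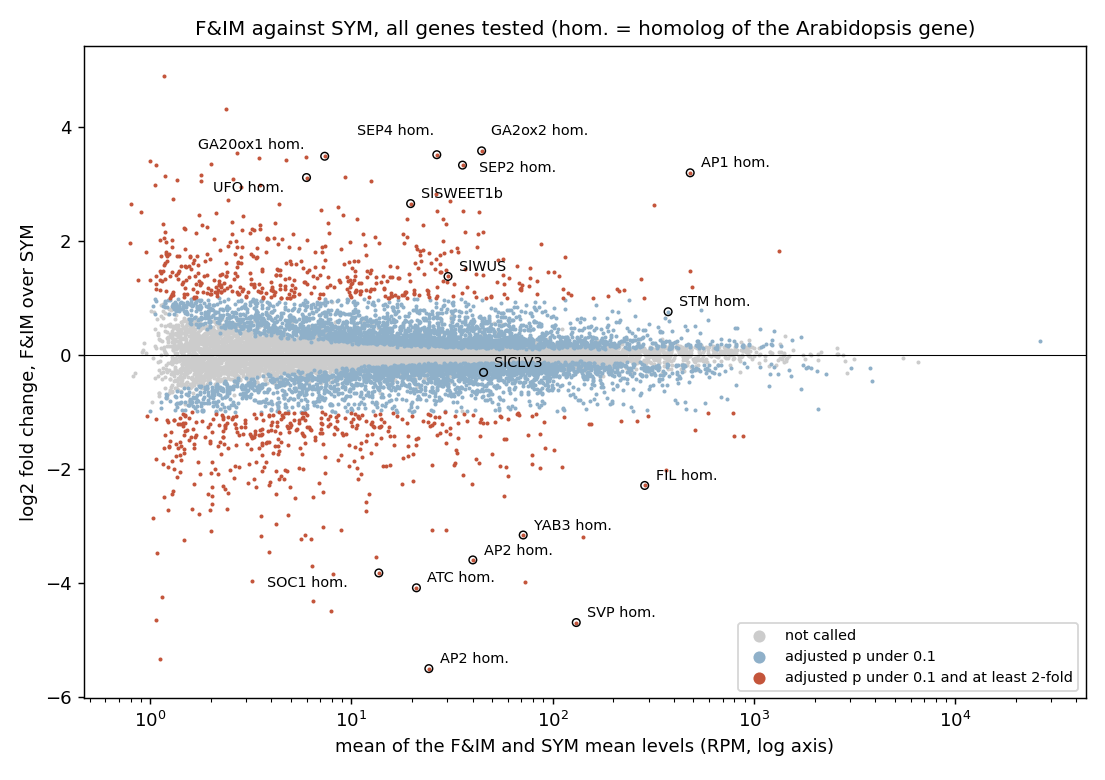
Log2 fold change of F&IM over SYM (vertical axis) against the mean level of the gene (horizontal axis, RPM, log scale) for the 17726 genes tested. Each point is a gene. Red points passed an adjusted p of 0.1 with at least a 2-fold change, blue points passed with a smaller change, and grey points were not called. The homologs of AP1, SEP2, SEP4, UFO, GA2ox2 and GA20ox1 lie above 3, and those of SVP, ATC and an AP2 gene lie below -4.

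Homologs of UFO and AP1, known from floral meristems, rose. A further gene set down as a marker of floral meristems, the tomato gene FA, is not described here. UFO, an F-box protein, gives a meristem floral identity in Arabidopsis, and its tomato counterpart ANANTHA is known from mutants whose inflorescences form meristems in place of flowers. The UFO homolog (Solyc02g081670) was at 5.95, 10.5 and 19.4 RPM (lowest, median and highest of the 12 libraries) in F&IM, against 0.226, 1.17 and 3.64 RPM in SYM. The stages did not overlap, and the log2 fold change was 3.12 ± 0.26 (SE, adjusted p = 4.6e-10). Separate stages were a condition for naming this gene and the others with the largest changes, and are no further result for them. In the WT alone, the 3 F&IM libraries were at 8.07, 11.3 and 10.6 RPM and the 3 SYM libraries at 0.368, 0.729 and 0.226 RPM, a log2 fold change of 4.32 ± 0.51, or 4.08 without the WT SYM, replicate 3. The highest SYM library was lc/fas, replicate 1. In bulk tissue, fewer cells that express a gene and less of its RNA per cell cannot be told apart.

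APETALA1 (AP1) and its relatives FRUITFULL (FUL) and CAULIFLOWER (CAL) are MADS-box factors of floral meristem identity, and AP1 also acts in sepals. The AP1 homolog Solyc05g056620, known in tomato as MACROCALYX, reached 775, 847 and 991 RPM in F&IM, against 58.2, 91.5 and 150.4 RPM in SYM. The gap between the stages was wide, with a log2 fold change of 3.20 ± 0.11 (adjusted p = 2.8e-18). WT libraries were at 830.4, 940.5 and 917 RPM in F&IM and 74.9, 73.6 and 58.2 RPM in SYM. A second gene close to AP1, Solyc02g089210, was higher by only 0.78 on the log2 scale (72.8 to 102 RPM in F&IM, 25.6 to 77.5 RPM in SYM), and its stages overlapped. The FUL homolog Solyc03g114830 rose by 1.54 ± 0.11 (83.3 to 139 RPM against 25.8 to 53.1 RPM), without overlap. The CAL homolog Solyc12g087830 did not pass the test (log2 fold change 0.16 ± 0.10, adjusted p = 0.29).

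SEPALLATA (SEP) proteins are the partners that other floral MADS-box factors need to build a flower. The SEP4 homolog Solyc12g038510, known in tomato as JOINTLESS2, had 37.0, 46.8 and 68.3 RPM in F&IM and 0.729, 4.02 and 11.1 RPM in SYM. Its log2 fold change was 3.52 ± 0.21 (adjusted p = 5.3e-12), and the stages were separate. The other SEP4 homolog, Solyc03g114840, was at 22.9, 31.5 and 48.3 RPM in F&IM, against 3.31, 5.62 and 9.42 RPM in SYM. This gene, ENHANCER OF JOINTLESS2, rose by 2.4 ± 0.14 on the log2 scale. The SEP2 homolog Solyc04g005320 gave 47.6, 65.7 and 76.8 RPM in F&IM, against 2.58, 6.39 and 9.20 RPM in SYM. Its change of 3.34 ± 0.12 (adjusted p = 3.1e-18) exceeded the 1.85 ± 0.15 of the second SEP2 homolog, Solyc02g089200. TM5 (Solyc05g015750), the SEP3 homolog, changed by 1.28 ± 0.13, from low levels on both sides (6.29 to 18.2 RPM in F&IM, 3.17 to 7.89 RPM in SYM).

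Of the genes that pattern the inner organs of the flower, TAG1 (Solyc02g071730), the AGAMOUS homolog that gives stamens and carpels their identity, was low at both stages, with 0.483, 1.93 and 4.68 RPM in F&IM and 0.639, 1.72 and 2.78 RPM in SYM. The stages overlapped, with a log2 fold change of 0.18 ± 0.25 (adjusted p = 0.64). Of the homologs of the petal and stamen genes APETALA3 (AP3) and PISTILLATA (PI), the AP3 homolog Solyc02g084630 rose by 0.65 ± 0.11 with overlapping stages (36.2 to 72.5 RPM in F&IM, 22.4 to 48.3 RPM in SYM). The AP3 homolog Solyc04g081000 (-0.11 ± 0.20) and the PI homolog Solyc08g067230 (-0.18 ± 0.18) did not pass. The PI homolog Solyc06g059970 fell by 0.43 ± 0.18 (adjusted p = 0.076), at 2.55 to 6.96 RPM in F&IM and 4.23 to 11.6 RPM in SYM.

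Of the MADS-box genes that fell, the SVP and SOC1 homologs fell most. Short Vegetative Phase (SVP) delays flowering in Arabidopsis and takes part in the earliest floral meristems there. Its homolog Solyc04g076280 was at 5.86, 8.08 and 17.7 RPM in F&IM, against 147, 263 and 297 RPM in SYM. No F&IM library came near a SYM library, and the log2 fold change was -4.69 ± 0.14 (adjusted p = 3.8e-18). SUPPRESSOR OF OVEREXPRESSION OF CONSTANS 1 (SOC1) promotes flowering at the Arabidopsis shoot apex. The SOC1 homolog Solyc12g056460 had 0.926, 1.73 and 3.14 RPM in F&IM and 21.9, 25.7 and 29.5 RPM in SYM, a log2 fold change of -3.82 ± 0.12 (adjusted p = 4.3e-19). The SOC1 homolog Solyc01g092950 was at 33.8 to 62.8 RPM in F&IM, against 141 to 194 RPM in SYM (-1.96 ± 0.08). The SOC1 homolog Solyc10g017630 was at 0 to 1.53 RPM in F&IM, against 4.49 to 11.3 RPM in SYM (-3.44 ± 0.22). All of the F&IM libraries lay below the SYM libraries for each of these 3 homologs. AGL15 (Solyc01g087990) and SEEDSTICK (Solyc06g064840) homologs also fell, with log2 fold changes of -1.21 ± 0.16 and -1.53 ± 0.20 and with overlap. In all, 9 of the 20 MADS-box genes with a pair rose (45%) and 7 fell (35%), against 20.8% and 21.4% of all genes with a pair, all 20 having passed the filter on low counts, and their median log2 fold change was 0.17. Their summed level was 1312 to 1584 RPM in F&IM and 557 to 915 RPM in SYM. The AP1 homolog Solyc05g056620 alone gave 775 to 991 RPM of this in F&IM and 58.2 to 150.4 RPM in SYM. The higher sum thus follows that gene and is no rise of the family as a whole.

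AP2-type repressors of flowering included the deepest fall among the named genes. APETALA2 (AP2) in Arabidopsis represses flowering and the gene AGAMOUS. The AP2 homolog Solyc02g064960 was at 0.128, 0.664 and 3.20 RPM in F&IM, against 30.8, 48.9 and 58.0 RPM in SYM. Its log2 fold change was -5.50 ± 0.21 (adjusted p = 6.3e-16). The AP2 homolog Solyc02g093150 had 2.62, 6.57 and 7.93 RPM in F&IM, against 59.5, 73.2 and 92.7 RPM in SYM, and fell by 3.59 ± 0.12 on the log2 scale. The AP2 homolog Solyc03g044300 fell by 2.96 ± 0.19 (0.484 to 1.72 RPM in F&IM, 4.98 to 10.3 RPM in SYM). The stages were separate for all 3. The relatives TARGET OF EAT 1 (TOE1, Solyc09g007260 and Solyc11g072600) went the other way, by 0.67 ± 0.13 and 0.43 ± 0.09, with overlap. Among the growth regulators of the same family, the AINTEGUMENTA (ANT) homolog Solyc04g077490 stayed at 633 to 853 RPM in F&IM and 607 to 845 RPM in SYM (log2 fold change -0.04 ± 0.06, adjusted p = 0.67), whereas the AIL6 homolog Solyc05g051380 rose by 0.66 ± 0.07. Thus 3 of 7 members rose and 3 fell, 42.9% each way, against 20.8% and 21.4% of all genes with a pair.

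The FT/TFL1 family holds the mobile flowering signal and its antagonists. SELF-PRUNING (Solyc06g074350, paired with Arabidopsis ATC), the antagonist that keeps the sympodial apex of tomato growing, was at 0.806, 1.80 and 5.53 RPM in F&IM and 26.8, 39.3 and 53.2 RPM in SYM. Its log2 fold change was -4.08 ± 0.23 (adjusted p = 2.2e-12), without overlap. WT libraries had 1.41, 1.14 and 0.893 RPM in F&IM and 39.5, 31.5 and 53.2 RPM in SYM, and the change there was -5.18 ± 0.43, or -4.97 without the WT SYM, replicate 3. The other member with a pair, the MFT homolog Solyc02g079290, did not differ beyond its spread (0.01 ± 0.20, adjusted p = 0.99). Among SBP-box genes, which promote the adult phase and flowering, the SPL3 homolog Solyc02g077920 rose by 0.38 ± 0.11 and the SPL15 homolog Solyc10g078700 fell by 0.61 ± 0.06. Both had overlapping stages. The rise of the SPL3 homolog passed in the WT (0.77 ± 0.21, edgeR, adjusted p = 0.020). Without the WT SYM, replicate 3, it was 0.68 (adjusted p = 0.085). In the NILs it did not pass (0.25 ± 0.12, adjusted p = 0.17).

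**Figure D2:**
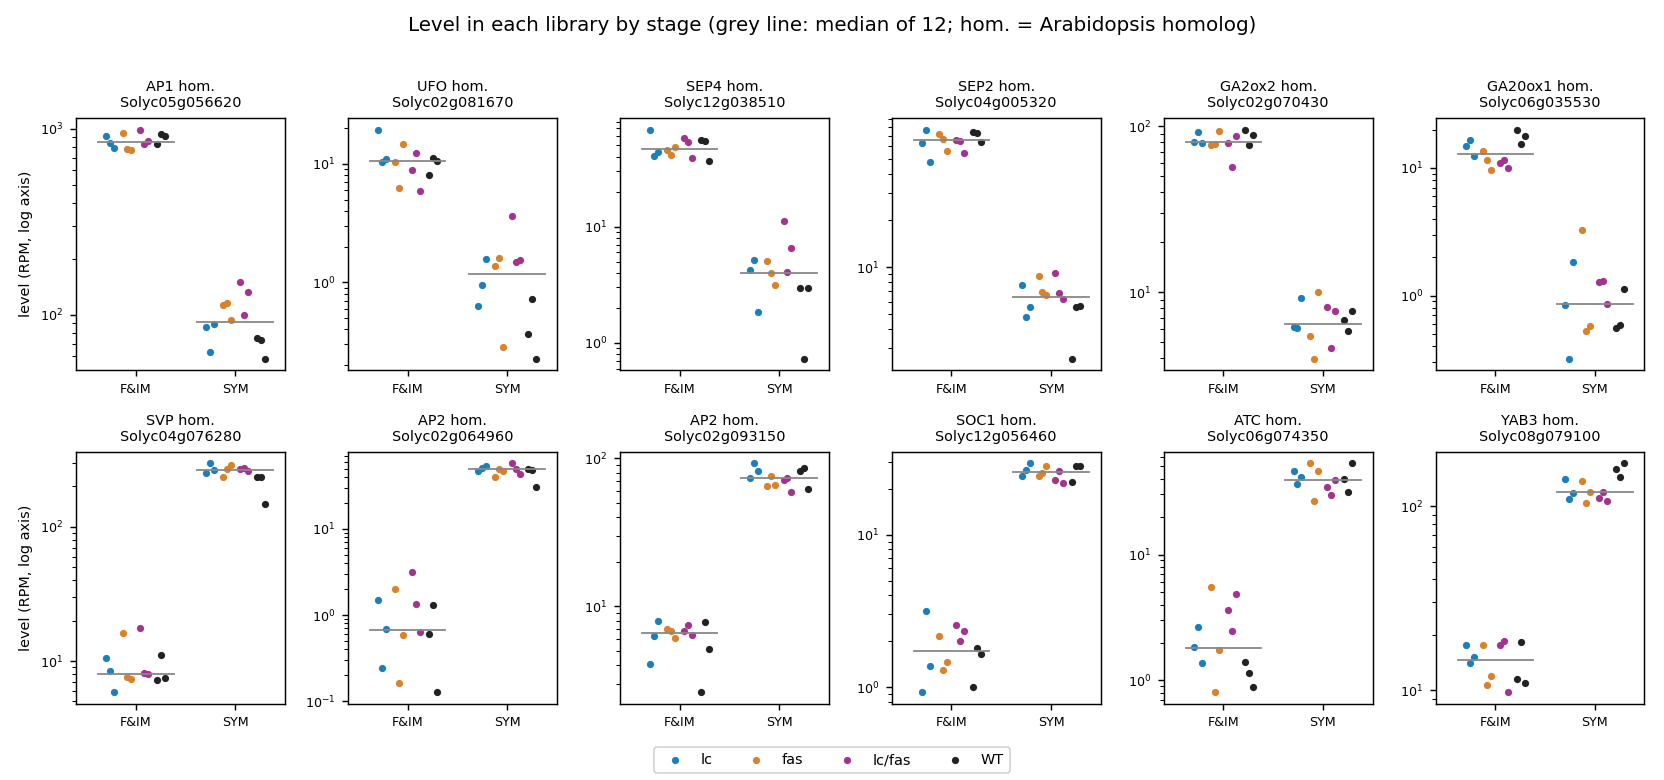
Level (vertical axes, RPM, log scale) of 12 genes in each of the 12 F&IM and 12 SYM libraries, coloured by genotype. Grey lines are the median of a stage. The upper row shows 6 genes that rose and the lower row 6 genes that fell. In each panel the 2 stages are separate in every genotype, which was a condition for choosing these genes.

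YABBY genes, which mark the outer (abaxial) side of leaves and floral organs and are expressed little in the meristem proper, were lower in F&IM. Of 6 members 5 passed the filter, and all 5 fell (100%, against 21.4% of all genes with a pair). Their median log2 fold change was -2.02, and the summed level of the family was 222 to 318 RPM in F&IM and 1028 to 1364 RPM in SYM. The FILAMENTOUS FLOWER (FIL) homolog Solyc01g091010 was at 73.0, 96.9 and 138 RPM in F&IM, against 414, 459.9 and 586 RPM in SYM (log2 fold change -2.28 ± 0.07, adjusted p = 3.2e-19). The YABBY3 homolog Solyc08g079100 had 9.78, 14.6 and 18.6 RPM in F&IM and 103, 119 and 171 RPM in SYM, and fell by 3.15 ± 0.11. For the YABBY5 homolog Solyc07g008180 the values were 122, 145 and 181 RPM in F&IM and 308, 589 and 779 RPM in SYM (-2.02 ± 0.11). These 3 genes had no overlap between stages, and the lowest SYM value of the YABBY5 homolog was the WT, replicate 3. The CRABS CLAW homolog Solyc01g010240, a gene of carpels and nectaries, fell by 0.88 ± 0.20, with overlap.

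SlYABBY2b (Solyc11g071810) lies at a breakpoint of the fas inversion. It had 7.06 to 11.9 RPM in F&IM of the WT, against 26.2 to 33.3 RPM in SYM of the WT (log2 fold change -1.57 ± 0.27, adjusted p = 2.9e-04), and the change was -1.50 without the WT SYM, replicate 3. In lc the change was -1.23. In the carriers of fas, whose gene is broken, the changes were -0.04 and 0.03 (fas and lc/fas), at 4.09 to 7.22 RPM in F&IM and 3.72 to 10.6 RPM in SYM of fas. Over all genotypes the change was -0.85 ± 0.21. The interaction of stage and genotype did not pass for this gene (edgeR, adjusted p = 0.9998, unadjusted p = 0.0016). The study, which tested all 5 stages and used an unadjusted p, lists SlYABBY2b among its genes with such an interaction. It also reports that in carriers of fas nearly all reads of the gene lay ahead of the breakpoint, in truncated RNA.

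Other genes of lateral organs and their boundaries moved in both directions. JAGGED, a zinc-finger factor, drives the outgrowth of leaves and floral organs in Arabidopsis, and its homolog Solyc05g009380 was at 4.46, 6.64 and 9.31 RPM in F&IM, against 20.9, 24.3 and 30.0 RPM in SYM. It fell by 1.93 ± 0.09 (adjusted p = 2.4e-15), and the stages were separate. BLADE-ON-PETIOLE (BOP) proteins act at the base of leaves and floral organs. Of the 3 BOP2 homologs, Solyc10g079750 fell by 1.25 ± 0.13 and Solyc10g079460 fell by 0.87 ± 0.12, whereas Solyc04g040220 rose by 0.34 ± 0.10. LATERAL SUPPRESSOR (Solyc07g066250), which tomato needs to start side shoots, was at 3.23 to 6.21 RPM in F&IM and 7.02 to 14.7 RPM in SYM (-1.12 ± 0.12). BLIND (Solyc11g069030, paired with Arabidopsis MYB36), also needed for side shoots in tomato, went the other way, with 191, 214 and 250.5 RPM in F&IM and 89.9, 117 and 135 RPM in SYM (0.89 ± 0.06). The homolog of CUP-SHAPED COTYLEDON 2, Solyc07g062840, known as GOBLET, fell slightly (-0.29 ± 0.10). In this list of 8 genes 2 rose (25%) and 6 fell (75%), against 20.8% and 21.4% of all genes with a pair. The median of the list was -0.99.

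Genes that set the upper and the lower face of an organ were less uniform. The abaxial gene KANADI2 had a homolog (Solyc06g066340) at 135 to 172 RPM in F&IM and 53.7 to 79.6 RPM in SYM, a rise of 1.17 ± 0.06. The KANADI1 homolog Solyc11g011770 fell by 0.19 ± 0.08 (adjusted p = 0.099). Among the 6 class III HD-ZIP genes, which mark the upper (adaxial) face and the meristem, the PHABULOSA homolog Solyc02g024070 fell by 0.84 ± 0.11, and its paralog Solyc02g069830 did not pass (0.08 ± 0.08). A CORONA homolog rose (Solyc08g066500, 0.89 ± 0.21) and another fell (Solyc12g044410, -0.44 ± 0.06). Neither REVOLUTA homolog passed the test.

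The LSH, SRS and INDETERMINATE DOMAIN families held members with opposite changes. LSH (ALOG) proteins are nuclear factors that time floral fate, and both LSH6 homologs, Solyc02g069510 (-2.26 ± 0.08) and Solyc04g009980 (-1.96 ± 0.17), fell without overlap. Both LSH3 homologs, Solyc09g025280 (0.81 ± 0.06) and Solyc06g083860 (0.74 ± 0.11), rose. In the SRS family of zinc-finger factors, the STYLISH1 homologs Solyc02g084680 and Solyc04g080970 rose by 1.88 ± 0.07 and 1.89 ± 0.09. The SRS5 homolog Solyc01g110140 was at 0.690, 1.82 and 4.35 RPM in F&IM, against 7.24, 23.5 and 37.9 RPM in SYM, and fell by 3.54 ± 0.23 (adjusted p = 8.8e-12). Its SYM libraries spread widely, and the lowest was again the WT, replicate 3. The zinc-finger factors of the INDETERMINATE DOMAIN family were split too. The IDD2 homolog Solyc04g080130 fell to 3.83, 5.70 and 9.60 RPM in F&IM, against 42.3, 54.0 and 65.3 RPM in SYM (-3.06 ± 0.12). The IDD14 homolog Solyc06g072360 rose by 2.53 ± 0.10 and its paralog Solyc03g098070 by 1.60 ± 0.09, whereas the paralog Solyc01g005060 fell by 0.79 ± 0.16.

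**Figure D3:**
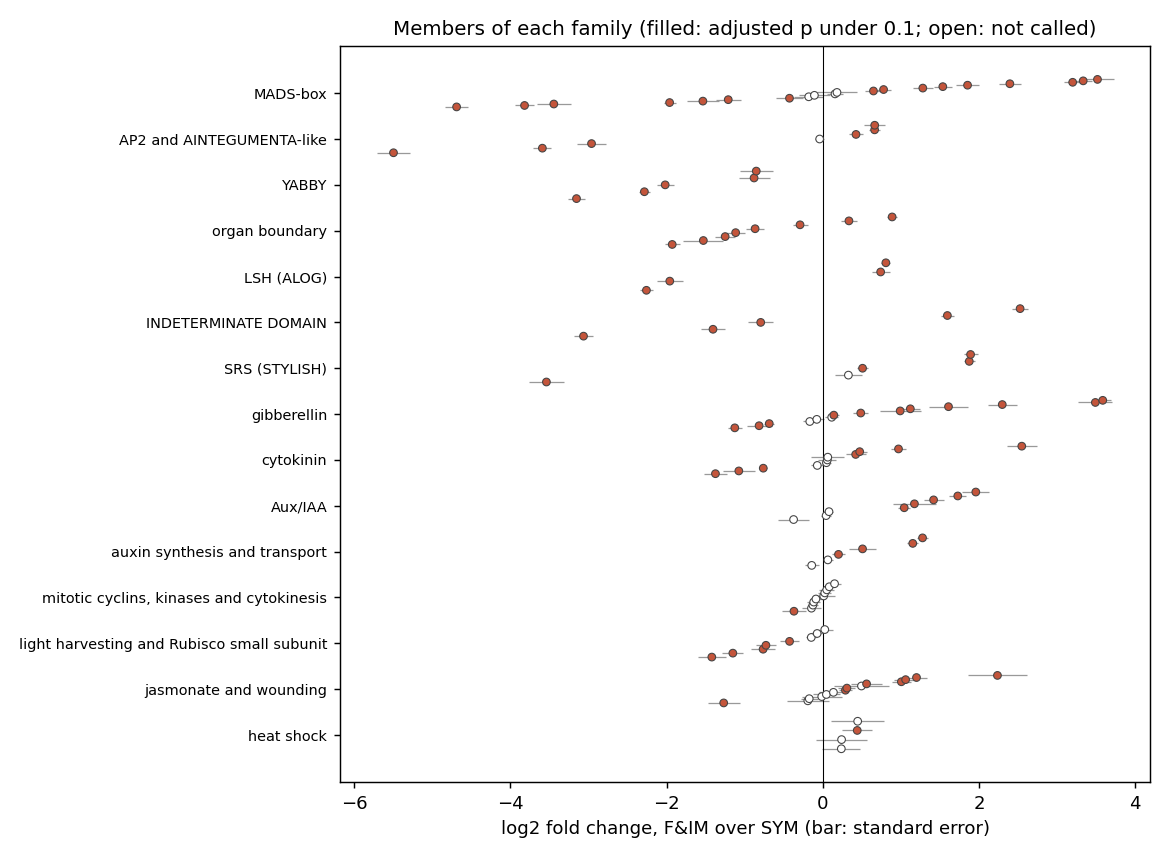
Log2 fold change of F&IM over SYM (horizontal axis) for every tested member of 15 gene families or functions, 1 row each. Points are genes, bars are standard errors, and filled points passed an adjusted p of 0.1. All YABBY members lie left of 0, called members of Aux/IAA and of auxin synthesis and transport lie right of 0, and MADS-box and AP2-type members lie on both sides.

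Stem cell genes moved apart from each other. SlWUS (Solyc02g083950), the homeobox gene that maintains stem cells, was at 35.9, 44.8 and 48.8 RPM in F&IM, against 9.91, 16.7 and 22.6 RPM in SYM. The stages were separate, with a log2 fold change of 1.38 ± 0.08 (adjusted p = 9.2e-14). SlCLV3 (Solyc11g071380), the peptide gene that limits SlWUS, had 26.3, 39.1 and 61.6 RPM in F&IM and 25.9, 44.4 and 79.4 RPM in SYM. Its stages overlapped, and it fell by 0.30 ± 0.08 (adjusted p = 0.0049). SlCLE9 (Solyc06g074060), a second gene of the CLV3 type, fell by 0.62 ± 0.10, also with overlap over all genotypes (3.45 to 38.6 RPM in F&IM, 8.74 to 58.8 RPM in SYM). These ranges pool genotypes of unlike level, since the study reports SlCLE9 higher in F&IM of fas and lc/fas than of the WT. In the WT alone its F&IM libraries lay below its SYM libraries (-0.79 ± 0.25, or -0.76 without the WT SYM, replicate 3).

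Levels of SlCLV3, and of SlWUS in part, are given by genotype as a description, with no test of genotype within a stage. SlCLV3 averaged 55.0 ± 5.77 RPM in F&IM and 75.1 ± 3.85 RPM in SYM of lc (SD, n = 3 each), 30.0 ± 3.86 and 32.0 ± 5.01 RPM of fas, 30.2 ± 3.42 and 32.6 ± 6.58 RPM of lc/fas, and 45.3 ± 2.05 and 62.7 ± 12.6 RPM of the WT. The log2 fold changes of SlCLV3 in the lc, fas and lc/fas NILs were -0.48, -0.11 and -0.11, against -0.47 in the WT. In the WT this passed (adjusted p = 0.044), but not without the WT SYM, replicate 3 (-0.33, adjusted p = 0.26). Log2 fold changes of SlWUS in the lc, fas and lc/fas NILs were 1.37, 1.28 and 1.07, against 1.85 in the WT, or 1.98 without that library. For SlWUS the interaction of stage and genotype did not pass (edgeR, adjusted p = 0.9998). Nor did its difference between NILs and WT (-0.61 ± 0.15, edgeR, unadjusted p = 3.0e-04, adjusted p = 0.73). The study, with all 5 stages and an unadjusted p, lists SlWUS and SlCLV3 among its genes with such an interaction. SlWUS in SYM averaged 21.7 ± 0.799 RPM in lc/fas, above the 11.2 ± 1.88 RPM in the WT.

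SHOOT MERISTEMLESS (STM), a KNOX homeobox gene, keeps meristem cells undifferentiated. Its homolog Solyc02g081120 was at 352, 485 and 539 RPM in F&IM and 160.0, 277 and 358 RPM in SYM, a change of 0.76 ± 0.09 with a small overlap. Of the 8 KNOX and BELL genes it was the only one to rise. The BELL homologs ATH1 (Solyc08g065420, -0.67 ± 0.05) and PENNYWISE (Solyc10g086640, -1.29 ± 0.13) fell without overlap, and the other 5 did not pass. Thus 12.5% of this list rose and 25% fell, against 20.8% and 21.4% of all genes with a pair. The WOX9 homolog Solyc02g077390, known as COMPOUND INFLORESCENCE for its part in the branching of tomato inflorescences, was at 12.3, 32.0 and 51.7 RPM in F&IM, against 2.72, 11.4 and 17.1 RPM in SYM, and rose by 1.54 ± 0.23. The ERF gene ENO (Solyc03g117230), which restrains meristem size in tomato, was at 99.1 to 125 RPM in F&IM and 35.9 to 75.3 RPM in SYM (0.93 ± 0.08).

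**Figure D4:**
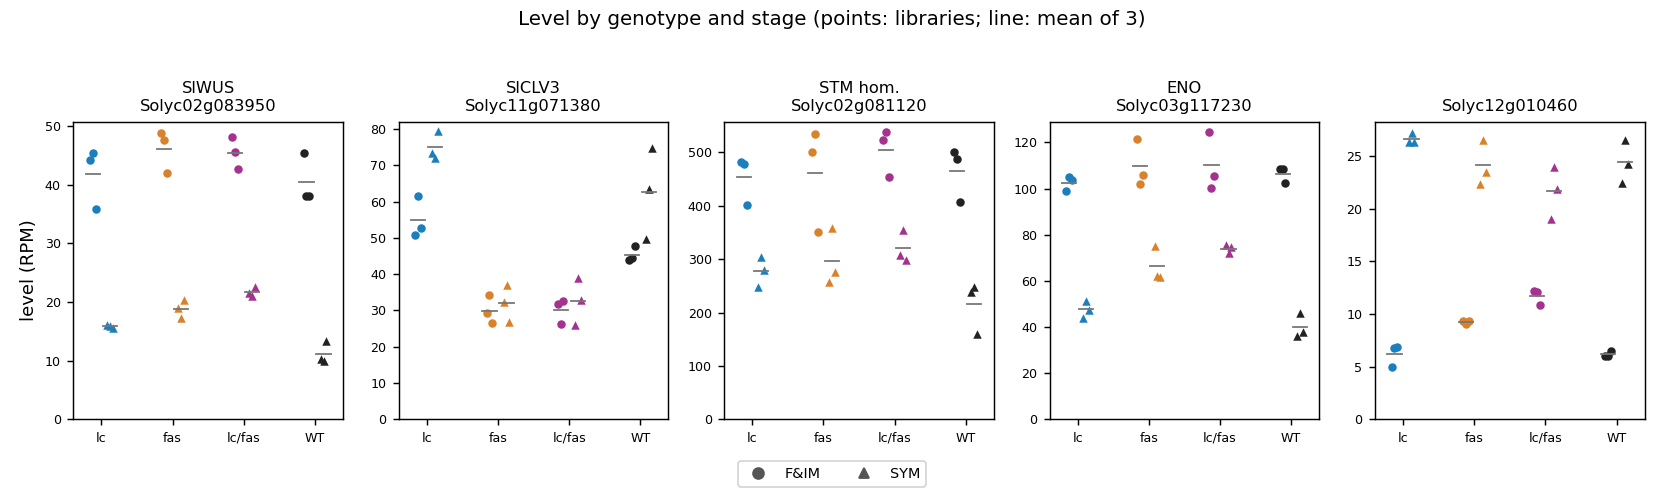
Level (vertical axes, RPM, from 0) of SlWUS, SlCLV3, the STM homolog, ENO and Solyc12g010460 in F&IM (circles) and SYM (triangles), by genotype. Points are libraries and lines are means of 3. SlWUS and ENO were higher in F&IM in all 4 genotypes, SlCLV3 was lower in both carriers of fas than in lc and the WT, and Solyc12g010460 had its lowest F&IM values in lc and the WT.

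Gibberellin genes gave some of the largest rises. GA20-oxidases make the precursors of active gibberellin and GA2-oxidases inactivate gibberellin. The GA2ox2 homolog Solyc02g070430 was at 56.8, 79.8 and 95.2 RPM in F&IM, against 3.98, 6.48 and 10.01 RPM in SYM. This was the gene with the smallest adjusted p of the named rises (2.3e-19), at a log2 fold change of 3.59 ± 0.11, and the WT libraries were at 95.2, 77.0 and 88.4 RPM in F&IM and 6.81, 5.83 and 7.69 RPM in SYM. The GA20ox1 homolog Solyc06g035530 had 9.64, 13.0 and 19.96 RPM in F&IM and 0.319, 0.855 and 3.29 RPM in SYM. It rose by 3.49 ± 0.22 (adjusted p = 5.8e-13), so a gene for a step of gibberellin synthesis and a gene for its inactivation both rose. The further GA2ox2 homologs, Solyc07g061720 (2.30 ± 0.19) and its neighbour in number Solyc07g061730 (1.12 ± 0.13), also rose. The GA2ox4 homolog Solyc01g058030 fell by 1.13 ± 0.09 (27.4 to 55.0 RPM in F&IM, 69.8 to 98.9 RPM in SYM). Of the 14 gibberellin genes tested among 15 with a pair, 8 rose (57.1%) and 3 fell (21.4%), against 20.8% and 21.4% of all genes with a pair, with a median of 0.31.

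Among cytokinin genes, the IPT5 homolog Solyc01g080150, which encodes the enzyme of the first step of cytokinin synthesis, was at 5.56, 12.5 and 16.2 RPM in F&IM and 0.424, 2.03 and 3.16 RPM in SYM. It rose by 2.55 ± 0.19 (adjusted p = 1.9e-11). LOG enzymes release the active hormone, and the LOG3 homolog Solyc09g007830 fell by 1.37 ± 0.15 while the LOG7 homolog Solyc10g082020 rose by 0.47 ± 0.09, both with overlap. The type-A response regulators, which cytokinin induces, were split: the ARR6 homolog Solyc03g113720 fell by 0.76 ± 0.05 and the ARR17 homolog Solyc06g048930 rose by 0.97 ± 0.10, both without overlap. Over the 11 genes, 4 rose (36.4%) and 3 fell (27.3%), against 20.8% and 21.4% of all genes with a pair, so that the counts were not far from the background.

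Auxin genes that were called moved upward. SlSoPIN1a (Solyc10g078370), an auxin efflux carrier, was at 264, 306 and 349.7 RPM in F&IM, against 110.2, 141 and 181 RPM in SYM (1.15 ± 0.07). The AUX1 homolog Solyc10g076790, an influx carrier, had 59.7 to 87.7 RPM in F&IM and 25.9 to 36.7 RPM in SYM (1.28 ± 0.07). The YUC4 homolog Solyc06g065630, an enzyme of auxin synthesis, did not pass (0.07 ± 0.06, adjusted p = 0.49). In this list of 6 genes 4 rose (66.7%, against 20.8% of all genes with a pair) and none fell, with a summed level of 417 to 527 RPM in F&IM and 220 to 294 RPM in SYM. Of the 8 Aux/IAA genes, repressors of the auxin response that auxin itself induces, 5 rose (62.5%) and none fell, with a median of 1.11. Their summed level was 474 to 565 RPM in F&IM and 235 to 366 RPM in SYM. The IAA26 homolog Solyc03g121060 (1.73 ± 0.11) and the IAA4 homologs Solyc06g084070 (1.96 ± 0.17), Solyc09g065850 (1.42 ± 0.13) and Solyc09g083280 (1.04 ± 0.08) had no overlap between stages.

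By the rule for naming the largest changes, 7 further rises and 5 further falls stood beside the genes above. The HB21 homolog Solyc02g062960, a homeodomain-leucine zipper gene tied to bud dormancy in Arabidopsis, was at 9.31, 16.2 and 32.6 RPM in F&IM, against 0.797, 1.74 and 3.81 RPM in SYM (3.12 ± 0.24). SlSWEET1b (Solyc04g064620), a sugar transporter, had 19.3, 31.9 and 48.5 RPM in F&IM and 2.21, 5.31 and 8.35 RPM in SYM (2.66 ± 0.11). The homolog of the RING-finger gene ATL63, Solyc06g007230, rose by 3.47 ± 0.20, and Solyc08g059810 and Solyc04g080640, whose Arabidopsis pairs are given as identifiers only, by 3.05 ± 0.16 and 2.65 ± 0.22. Among the falls were the homologs of the DOF factor DAG1 (Solyc01g096120, -3.23 ± 0.17), the purine permease PUP4 (Solyc02g082170, -3.15 ± 0.20) and the aquaporin PIP2;2 (Solyc06g011350, -3.02 ± 0.19). Without a pair, Solyc05g015940 (3.47 ± 0.23) and Solyc06g084820 (2.98 ± 0.25) rose, and Solyc05g054030 (-4.49 ± 0.21) and Solyc11g005820 (-4.31 ± 0.20) fell. Separate stages were a condition of that rule.

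Of 10 genes for mitotic cyclins, kinases and cytokinesis none rose and 1 fell (10%), against 20.8% and 21.4% of all genes with a pair, and the median was -0.04. Cyclin B2;3 (Solyc03g032190) was at 64.7, 69.8 and 81.1 RPM in F&IM and 56.3, 65.6 and 79.4 RPM in SYM (log2 fold change 0.08 ± 0.06, adjusted p = 0.29). The KNOLLE homolog Solyc06g053760 changed by 0.01 ± 0.14. The gene that fell was the CYCB1;2 homolog Solyc11g030550 (-0.37 ± 0.15, adjusted p = 0.068). Outside this list, Solyc04g078470, whose Arabidopsis pair AT4G34160 is a D-type cyclin, rose by 0.24 ± 0.07 with overlap (342 to 449.7 RPM in F&IM, 264 to 449 RPM in SYM). In the WT alone Solyc04g078470 did not pass (0.05 ± 0.13, adjusted p = 0.91, or 0.73 without the WT SYM, replicate 3).

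Markers of green leaf tissue and of handling were followed as a measure of other cells and of dissection. Of 8 genes for light harvesting, none rose and 5 fell (62.5%, against 21.4% of all genes with a pair), with a median of -0.58. Their summed level overlapped at 555 to 790 RPM in F&IM and 601 to 989 RPM in SYM. The LHCB1.3 homologs Solyc02g071010 (-1.15 ± 0.14) and Solyc02g070940 (-0.42 ± 0.12) fell, and near-identical copies of this family cannot be separated with certainty. Of 5 photosystem and ATP synthase genes 1 rose (20%, near the 20.8% of all genes with a pair) and none fell. Of 14 jasmonate and wounding genes 7 rose (50%) and 1 fell (7.14%), against 20.8% and 21.4% of all genes with a pair. The median of these genes was 0.30. Their summed level, 1008 to 1964 RPM in F&IM and 624 to 914 RPM in SYM, did not overlap. The LOX3 homolog Solyc03g122340, an enzyme of jasmonate synthesis, had 276, 377 and 512 RPM in F&IM and 119.7, 198 and 254 RPM in SYM (1.01 ± 0.12). The proteinase inhibitor Solyc09g084480, of a wound-induced tomato family with close copies, rose by 1.20 ± 0.13, but LOX2 (Solyc12g011040) fell by 1.27 ± 0.20. Of 4 heat shock genes 1 rose (25%, also near the background) and none fell. Outside this list, Solyc06g076560, paired with the small heat shock protein AT1G07400, was at 12.4, 15.8 and 31.5 RPM in F&IM and 4.14, 8.10 and 11.4 RPM in SYM, and rose by 1.16 ± 0.17 without overlap. Its neighbour in number, Solyc06g076540, with the same pair, did not pass (0.49 ± 0.24, adjusted p = 0.14). The part of leaf tissue, of wounding and of heat shock in the changes between the stages was not tested.

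The WT alone, with 3 F&IM and 3 SYM libraries, gave 999 genes higher (5.64%) and 1097 lower (6.19%) in F&IM at an adjusted p under 0.1. Without the WT SYM, replicate 3, there were 854 higher and 916 lower of 18015 genes tested. The 28 genes named for the size of their change, 14 in each direction, were chosen on libraries that include those of the WT, so that their calls there are a description and no separate check. All 28 passed in the WT, with and without the WT SYM, replicate 3, whose removal shifted their changes by at most 0.58 on the log2 scale. All 463 and 421 genes with at least a 2-fold change over the genotypes had the same sign in the WT, whose libraries are among those used, and 372 and 361 of them passed there (345 and 348 without that library). Smaller changes did not all pass. The TOE1 homolog Solyc09g007260 had an adjusted p of 0.33 in the WT, but passed without that library (adjusted p = 0.0079). The TOE1 homolog Solyc11g072600 (adjusted p = 0.27, or 0.15 without it) and the CUP-SHAPED COTYLEDON 2 homolog Solyc07g062840 (0.83, or 0.34 without it) passed in neither. SlCLE9 (Solyc06g074060) and Solyc06g076560 passed in the WT (adjusted p = 0.047 and 0.046), but not without that library (0.11 and 0.14).

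The 3 NILs share no library with the WT and were used as a second sample. Their 9 F&IM and 9 SYM libraries gave 2554 genes higher (14.4%) and 2403 lower (13.6%). Of the 2096 genes called in the WT, 2073 (98.9%) had the same sign in the NILs, and 1771 were called in both, which is 84.5% of the WT calls and 35.7% of the 4957 NIL calls. Across the 17726 genes, which are not independent replicates, the log2 fold changes of the WT and the NILs had r = 0.80. With the WT SYM, replicate 3, left out, the filter on low counts was rerun and passed 18015 genes. Across these r was 0.82, and 1765 of 1770 WT calls (99.7%) kept their sign in the NILs. Of the 489 genes at least 2-fold higher in the WT, 429 were called in the NILs with the same sign, and of the 451 at least 2-fold lower, 435 were. Without that library the counts were 416 of 449 and 427 of 436.

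**Figure D5:**
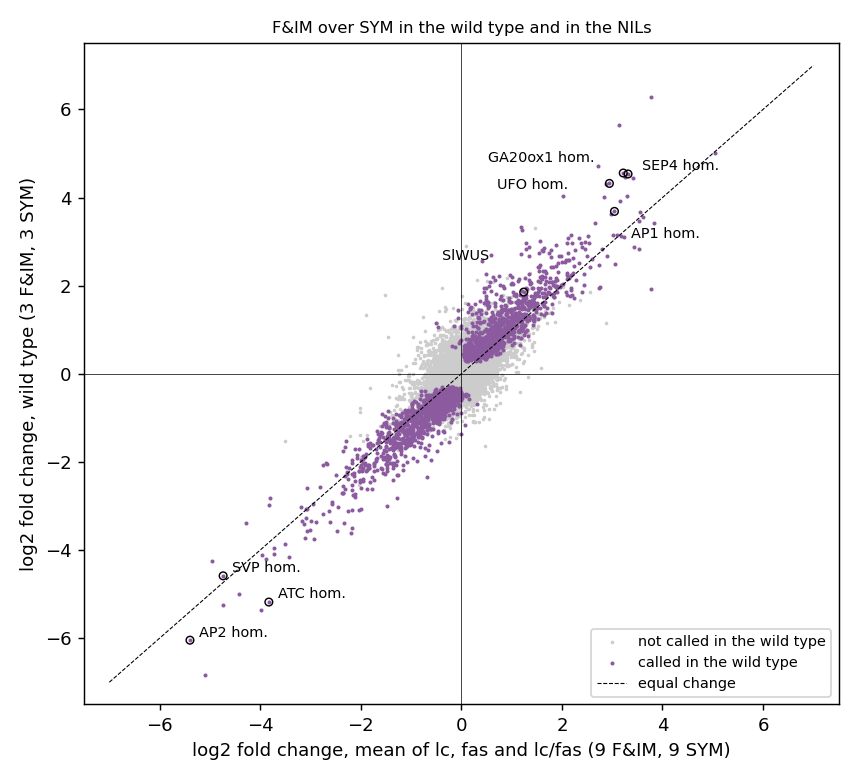
Log2 fold change of F&IM over SYM in the WT (vertical axis) against the mean change in lc, fas and lc/fas (horizontal axis). Each point is 1 of the 17726 genes tested, purple points passed in the WT, and the dashed line marks equal change. Points with large changes lie in the upper right and lower left, and the labelled genes other than the SVP homolog lie farther from 0 on the WT axis than on the NIL axis.

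The change was also set out by genotype, and a difference between genotypes passed the test for 1 gene. The 463 genes with at least a 2-fold rise had median log2 fold changes of 1.55, 1.35 and 1.27 in the lc, fas and lc/fas NILs, against 1.61 in the WT. For the 421 genes with at least a 2-fold fall the medians were -1.55, -1.41 and -1.37 in these NILs, against -1.57 in the WT. The change was larger in size in the WT than in the NILs for 315 of the 463 and 264 of the 421 genes. Neither the medians nor these counts were tested, and both include the WT SYM, replicate 3. The genes were chosen on all genotypes together, and the WT value is 1 contrast of 3 against 3 libraries. The NIL value is a mean over 3 such contrasts. A weaker change in the NILs cannot be read from these figures. The UFO homolog Solyc02g081670 changed by 3.68, 3.10 and 2.05 in the NILs (lc, fas, lc/fas), against 4.32 in the WT (4.08 without the WT SYM, replicate 3). Its interaction (adjusted p = 0.9998) and its difference between NILs and WT (adjusted p = 0.89) did not pass. ENO (Solyc03g117230) changed by 1.08, 0.71 and 0.58 in the NILs, against 1.40 in the WT (1.36 without the WT SYM, replicate 3). Its SYM levels averaged 74.0 ± 1.75 RPM in lc/fas and 40.03 ± 5.45 RPM in the WT (SD, n = 3 each). The difference between NILs and WT was -0.61 ± 0.13 for ENO, with an unadjusted p of 1.5e-04 and an adjusted p of 0.72 from edgeR.

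In the test of the stage by genotype interaction 1 of 17726 genes (0.00564%) passed an adjusted p of 0.1, and 306 (1.73%) had an unadjusted p under 0.05. For the NILs as a group minus the WT no gene passed in edgeR, and 791 had an unadjusted p under 0.05. The gene that passed the interaction, Solyc12g010460, has no Arabidopsis pair. The call was not stable: no gene passed in 20 of 24 fits with 1 library left out, with total counts, without the filter, with all 60 libraries or with a block by genotype and replicate number, and 7 passed with DESeq2. It was at 5.00 to 6.90 RPM in F&IM of lc, 9.03 to 9.37 RPM of fas, 10.8 to 12.2 RPM of lc/fas and 6.04 to 6.50 RPM of the WT. All 12 SYM libraries held 19.0 to 27.2 RPM. Its log2 fold changes in the lc, fas and lc/fas NILs were -2.15, -1.39 and -0.88, against -1.98 ± 0.14 in the WT, or -1.99 without the WT SYM, replicate 3 (interaction adjusted p = 0.069).

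The bud libraries show how the changes went on, as levels without a test. Of the 463 genes with at least a 2-fold rise, 242 had the highest of their 5 stage medians in F&IM, and 45, 42 and 134 had it in the buds of 2, 4 and 6 dpi. Of the 421 genes with at least a 2-fold fall, 193 were highest in SYM, and 7, 54 and 167 were highest at 2, 4 and 6 dpi. The genes were chosen on F&IM and SYM values. That 0 rises were highest in SYM and 0 falls highest in F&IM follows from that choice. The counts were not set beside all genes tested and are a description only. The GA2ox2 homolog Solyc02g070430 was highest in F&IM, with medians of 6.48, 79.8, 17.9, 8.32 and 9.27 RPM in SYM, F&IM and buds of 2, 4 and 6 dpi. The UFO homolog Solyc02g081670 went on to higher levels in buds, with medians of 1.17, 10.5, 89.5, 82.6 and 49.1 RPM over the same stages. In the same order SlWUS (Solyc02g083950) had 16.7, 44.8, 26.7, 6.04 and 3.88 RPM and BLIND (Solyc11g069030) 117, 214, 129, 49.9 and 29.7 RPM, both highest in F&IM.

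Of the 421 genes with at least a 2-fold fall, 292 had a median at 2 dpi nearer to that of F&IM than to that of SYM on the log2 scale, as did 167 at 4 dpi and 138 at 6 dpi. These counts too depend on the F&IM and SYM values used to choose the genes, and were not set beside all genes tested. The SVP homolog Solyc04g076280 stayed low, with medians of 263, 8.08, 7.06, 8.04 and 7.73 RPM in SYM, F&IM and buds of 2, 4 and 6 dpi. SELF-PRUNING (Solyc06g074350) did so too, at 39.3, 1.80, 0.999, 0.443 and 0.315 RPM. By contrast, the FIL homolog Solyc01g091010 had medians of 459.9, 96.9, 544, 546 and 425 RPM and the JAGGED homolog Solyc05g009380 24.3, 6.64, 33.8, 43.2 and 40.8 RPM, so both were lowest in F&IM. The AP2 homolog Solyc02g093150 was lowest in F&IM too, at 73.2, 6.57, 13.8, 31.8 and 47.0 RPM. The AP2 homolog Solyc02g064960 had medians of 48.9, 0.664, 0.565, 4.11 and 17.4 RPM. It was near the floor both in F&IM (0.128 to 3.20 RPM) and at 2 dpi (0.214 to 2.36 RPM). TAG1 (Solyc02g071730), low in both meristems, was at 1.72, 1.93, 2.30, 98.6 and 177 RPM.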

How the data were processed

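From 3′ Tag RNA-seq reads trimmed with fqtrim and mapped by Rsubread to the ITAG2.4 tomato release, the authors deposited whole counts per gene. How reads shared by near-identical copies were counted is not stated, and reads carry no molecular identifiers. The submitters' processing notes name DESeq2 without a version. The table holds 34725 genes in 60 libraries. 1 unnamed line (in each library, how many genes had 3 or more counts) entered neither totals nor tests and held at most 0.633% of a library here, and 0 columns could not be mapped.

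F&IM was compared with SYM with edgeR 4.0.16 in R 4.3.3: filterByExpr over the 8 groups (17726 genes), TMM factors (F&IM minus SYM 0.013 on the log2 scale), the robust quasi-likelihood test with genotype as covariate, and a Benjamini-Hochberg adjusted p under 0.1 as in the study. A model of the 8 groups gave the WT, the NILs and the interaction. Replicates are biological according to the study. The procedure was tested on simulated data. The alternatives were DESeq2 1.42.0, its size factors, total counts, no filter, at least 10 counts in 12 libraries, replicate blocks, all 60 libraries, an adjusted p under 0.05, the 6 WT libraries alone, and leaving out each library. Leaving out the WT SYM, replicate 3, for the comparison of WT and NILs, and the levels in buds, were added after seeing the data.

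Genes, lists and rules were chosen with earlier results of these data known. No reference table paired the gene identifiers with names, so families rest on 3820 Arabidopsis pairs from the study's gene lists, themselves chosen largely on these libraries. They were assembled after the values could be seen, and list counts are descriptions. Named by rule were up to 12 genes each way with the largest change, at least 5 RPM, separate stages and a pair or name, 2 each way without one, list members the study names, up to 4 further members by p, and interaction genes. Other list members are named after their values were seen. The RNAi lines, microscopy and phenotypes were not analysed here.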

Additional observations from a re-analysis of the deposited data

Results flagged for a closer look

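The change between the stages of Solyc12g010460 differed between genotypes in a test of the interaction itself (edgeR, adjusted p = 0.069). As a mean of the 3 NILs the log2 fold change was -1.48 ± 0.08, against -1.98 ± 0.14 in the WT, a difference of 0.50 for NILs minus WT. That difference alone did not pass the test over all genes (adjusted p = 0.89). The change was -2.15 for lc, -1.39 for fas and -0.88 for lc/fas. The call was lost with total counts, without a filter on low counts, with all 60 libraries, with the block by genotype and replicate number, at an adjusted p under 0.05 and in 20 of the 24 fits with 1 library left out, where no gene passed. The gene is named without a function because it has no Arabidopsis pair in the sources used here.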

How the results depend on the processing

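Of the 83 genes named by rule, the 63 that were called kept their call and their direction in 8 other fits of all genotypes and with any 1 of the 24 libraries left out (2 genes were not tested with at least 10 counts in 12 libraries), and 5 of the 20 not called gained a call in 15 instances. Other genes named in the text were not followed singly through these fits. With 1 library left out the filter on low counts was rerun, so the genes tested could differ from those of the reported fit. With 1 library left out, the number of genes higher ran from 2751 to 3425 and lower from 2678 to 3353 over all genotypes, at least 2-fold higher from 465 to 505 and lower from 422 to 460, higher from 714 to 1024 and lower from 737 to 1210 in the WT, and higher from 2074 to 2949 and lower from 2064 to 2799 in the NILs. With a library left out, interaction genes ran from 0 to 2 and were 0 in 20 of 24 fits, and were 7 with DESeq2, 0 with total counts, without a filter, with all 60 libraries and at an adjusted p under 0.05 (in the reported fit 306 had an unadjusted p under 0.05). The cause was not tested. Without the filter on low counts, 701 genes were at least 2-fold higher and 712 lower, genes of low level then being tested too. The 6 WT libraries fitted alone gave 666 genes higher and 758 lower. With a library left out, 3 genes that were not called changed sign: Solyc12g082730 from -0.14 to 0.025, Solyc11g072280 from -0.012 to 0.055 and Solyc09g089510 from -0.13 to 0.085 on the log2 scale.

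Equal replicate numbers were not taken as a pairing. Over 12 pairs of F&IM and SYM libraries of 1 genotype with the same number, residuals correlated at 0.018 to 0.544, 8 above 0.1, and 11 of 12 were closest to their own number, a hint from the data and not from the design. With a replicate block by genotype and number, 3700 genes were higher and 3245 lower, 461 and 420 by at least 2-fold, 1462 and 1430 in the WT, 3235 and 2885 in the NILs, and 0 for the interaction. With a block by number alone the counts were 3569 and 3277, 460 and 428, 1350 and 1411, 3115 and 2832, and 2 for the interaction.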
